A study of Homo sapiens with 18 samples.

Results

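RNA of 9 genes of MHC class I antigen presentation was followed in 2 human breast cancer cell lines after a doxycycline-inducible G0S2 gene was switched on. The genes were HLA-B, HLA-C, HLA-E and HLA-F (class I heavy chains), B2M (the light chain), TAP1, TAP2 and TAPBP (peptide loading) and NLRC5 (a transcriptional regulator of the class I genes). They were taken as a named list, and all 9 of 9 were listed in both deposited tables, out of 16410 genes listed in either. T47D is an estrogen receptor positive line and MDA-MB-231 an estrogen receptor negative line, both established from breast cancers. Cells of each line were sampled on day 3 and on day 15 of exposure to doxycycline (0.5 ug/ml), and untreated cells served as the control. There were 3 libraries in each of the 6 groups and 18 in all. All groups, the controls included, carry the inducible gene. The labels name neither the promoter nor whether each line is 1 clone, and no doxycycline-treated cells lacking the inducible gene were analysed here, so the effect of G0S2 cannot be told apart from that of the drug or the vector. The controls are labelled day 0, and no untreated cells of day 3 or day 15 were analysed here. Time in culture and day of sampling therefore cannot be told apart from induction either. Nothing in the sample labels states that replicate libraries were separate cultures; a p-value here covers the spread among libraries, and that spread may be technical.

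MHC class I molecules carry short peptides from proteins made inside the cell to its surface, where CD8 T cells and natural killer cells read them. A heavy chain folds with beta-2-microglobulin in the endoplasmic reticulum, and the TAP1-TAP2 transporter delivers peptides that tapasin (TAPBP) helps to load. Transcription of these genes is raised by interferons through STAT and IRF factors and by NLRC5, a member of the NOD-like receptor family that acts at their promoters, and loss of class I expression is a known route by which tumours escape T cells.

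The heavy chain genes, both TAP genes and TAPBP lie in the MHC on chromosome 6, B2M on chromosome 15 and NLRC5 on chromosome 16. In GENCODE 29 on GRCh38, the span of HLA-F is chr6:29722775-29738528 and that of HLA-E chr6:30489467-30494205, both on the plus strand. HLA-C (chr6:31268749-31272130), TAP2 (chr6:32821833-32838780), TAP1 (chr6:32845209-32853978) and TAPBP (chr6:33299694-33314387) are on the minus strand. The 8-exon transcript of HLA-B used here spans chr6:31353872-31357187 on the minus strand, while the annotated gene reaches into HLA-C. B2M (chr15:44711487-44718877) and NLRC5 (chr16:56989485-57083531) are on the plus strand. Overlapping genes that are also listed are HLA-B with HLA-C on the same strand, HLA-F with HLA-F-AS1 on the opposite strand, and TAP1 with PSMB9 and PSMB8-AS1 on the opposite strand. The use of strand in counting is not given in the sources used here, so reads of such pairs cannot be told apart with certainty. Heavy chain genes are also near-identical and vary between people, so reads may be shared among them or lost where the alleles of a line differ from the reference, and their levels are uncertain for that reason.

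Promoter sequences show which letter strings the members share, although the positions of these strings differ between genes. RefSeq promoters on GRCh38.p14, the 250 bases before the annotated start, were held for 7 of the 9 members, all but HLA-E and NLRC5. They were searched on both strands for the interferon-stimulated response element (ISRE), written as GAAA, any 2 bases and GAAA again, and for a shorter class I form, GAANNGAAA. These letters were chosen after the sequences had been seen. Positions count from the RefSeq start, which differs from the GENCODE 29 start for several members. The windows of TAP1 and TAPBP lie wholly inside the spans of the GENCODE transcripts used here. Those of B2M, HLA-B, HLA-F and TAP2 reach into them, so some matches may lie in transcribed sequence. Either form was found in 7 of 7 members, against 9.08% of all 35116 promoters. The longer form was in 5 of them (B2M, HLA-F, TAP1, TAP2 and TAPBP) and in 3.02% of all promoters, and the shorter form in 3 (HLA-B, HLA-C and TAP2) and in 6.56% of all. Below are 5 promoters, in the order HLA-B (chr6:31357180-31357429, minus strand), HLA-F (chr6:29723184-29723433, plus strand), B2M (chr15:44711267-44711516, plus strand), TAP1 (chr6:32853705-32853954, minus strand) and TAPBP (chr6:33314079-33314328, minus strand). They were picked to cover a classical and a non-classical heavy chain, the light chain, the transporter and the loading chaperone; they run 5′ to 3′ along the gene, and capitals mark the letters of either ISRE form.
HLA-B: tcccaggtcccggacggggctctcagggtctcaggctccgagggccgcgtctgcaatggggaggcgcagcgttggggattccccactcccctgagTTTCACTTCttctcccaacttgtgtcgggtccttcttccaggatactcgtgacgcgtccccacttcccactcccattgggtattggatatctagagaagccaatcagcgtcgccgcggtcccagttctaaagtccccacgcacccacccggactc
HLA-F: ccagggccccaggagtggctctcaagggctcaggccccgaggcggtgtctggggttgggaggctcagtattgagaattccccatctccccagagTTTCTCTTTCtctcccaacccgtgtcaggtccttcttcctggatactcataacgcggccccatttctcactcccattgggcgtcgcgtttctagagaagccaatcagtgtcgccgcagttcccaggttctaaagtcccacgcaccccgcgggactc
B2M: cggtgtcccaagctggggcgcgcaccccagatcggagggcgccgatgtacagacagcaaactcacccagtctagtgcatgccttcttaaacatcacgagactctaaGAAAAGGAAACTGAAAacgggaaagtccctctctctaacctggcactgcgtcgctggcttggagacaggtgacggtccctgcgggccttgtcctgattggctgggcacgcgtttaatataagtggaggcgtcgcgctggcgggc
TAP1: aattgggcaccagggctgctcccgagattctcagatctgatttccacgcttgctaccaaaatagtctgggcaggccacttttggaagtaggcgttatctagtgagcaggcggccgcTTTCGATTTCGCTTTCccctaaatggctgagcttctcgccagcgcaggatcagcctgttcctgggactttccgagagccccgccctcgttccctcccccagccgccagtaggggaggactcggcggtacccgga
TAPBP: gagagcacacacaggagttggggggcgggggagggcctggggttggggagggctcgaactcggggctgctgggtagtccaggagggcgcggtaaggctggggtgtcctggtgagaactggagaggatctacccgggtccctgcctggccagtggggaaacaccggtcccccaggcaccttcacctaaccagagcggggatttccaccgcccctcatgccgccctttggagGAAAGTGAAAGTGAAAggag

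In HLA-B the match runs on the strand opposite to the gene, from base -155 to base -147 before the start, and in HLA-F likewise from -156 to -147. B2M holds a pair of overlapping matches from -144 to -129, TAP1 a pair from -134 to -119 and TAPBP a pair from -20 to -5. A kappa B letter string, GGGATTCCC, was found in HLA-B alone of the 7, and in 0.362% of all promoters. The interferon-gamma activated site TTCNNNGAA was in 0 of the 7 and in 6.57% of all promoters. The CCAAT box was in 5 of the 7 and in 32.0% of all, and TGACGC, a core of the X2 box through which NLRC5 partners act, was in 3 (HLA-B, HLA-C and TAP2) and in 7.67% of all. Apart from the ISRE forms, which overlapped each other in TAP2 as well, no match in these promoters overlapped a match of another motif. A match describes the letters and does not show that a factor binds there.

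Over the listed genes, the libraries held 40.1 to 51.0 M reads in T47D and 37.0 to 52.4 M reads in MDA-MB-231. In CPM, read counts scaled to library size, G0S2 in T47D was at most 0.900 in any control library and at least 735.9 in any induced library. In MDA-MB-231 it was at most 25.48 CPM in any control library and at least 1103 CPM in any induced one, so no library went against its label. T47D identity markers such as ESR1 and FOXA1 were listed 12 of 12 in T47D and 7 of 12 in MDA-MB-231, where ESR1, PGR, FOXA1, TFF1 and TFF3 were not listed. MDA-MB-231 markers such as VIM and ZEB1 were listed 10 of 10 in MDA-MB-231 and 3 of 10 in T47D. One library stood apart: T47D day 15 replicate 2 deviated from its group mean with an SD over genes of 0.1328 (log2), against 0.0587 to 0.104 in the other T47D libraries. Without it, 746 genes were called at day 3 over control in T47D and 3705 at day 15 over control, against 277 and 1659 with it, so the shares of all genes called depend on it too.

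Before induction, the 9 genes spanned a wide range of levels in both lines, with B2M highest. Levels are given per kilobase of the longest coding transcript. Which transcripts were expressed was not tested, and the order of genes at close levels depends on that choice. T47D controls ran in the order B2M (149.0 ± 3.18 CPM per kb, SD, n = 3), HLA-B (80.6 ± 3.31), TAPBP (51.6 ± 1.35), HLA-C (47 ± 2.10), HLA-E (31.3 ± 0.581), TAP1 (19.3 ± 0.460), TAP2 (5.84 ± 0.376), HLA-F (2.08 ± 0.240) and NLRC5 (0.227 ± 0.0401). No neighbours in this order overlapped between libraries. MDA-MB-231 controls ran in the order B2M (246.4 ± 5.77 CPM per kb, SD, n = 3), HLA-B (93.7 ± 4.96), HLA-E (70.9 ± 1.60), HLA-C (64.8 ± 3.96), TAPBP (63.0 ± 0.320), TAP2 (20.6 ± 0.132), TAP1 (13.8 ± 0.168), NLRC5 (2.21 ± 0.0964) and HLA-F (0.582 ± 0.0674). Only HLA-C and TAPBP overlapped there. NLRC5 thus stood at 0.227 CPM per kb in T47D controls and at 2.21 CPM per kb in MDA-MB-231 controls, and TAP2 at 5.84 and 20.6 CPM per kb. TAP1 and HLA-F ran the other way, with 19.3 and 2.08 CPM per kb in T47D controls, against 13.8 and 0.582 CPM per kb in MDA-MB-231 controls. The tables of the lines were scaled separately, so these levels between lines are given without a test.

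**Figure D1:**
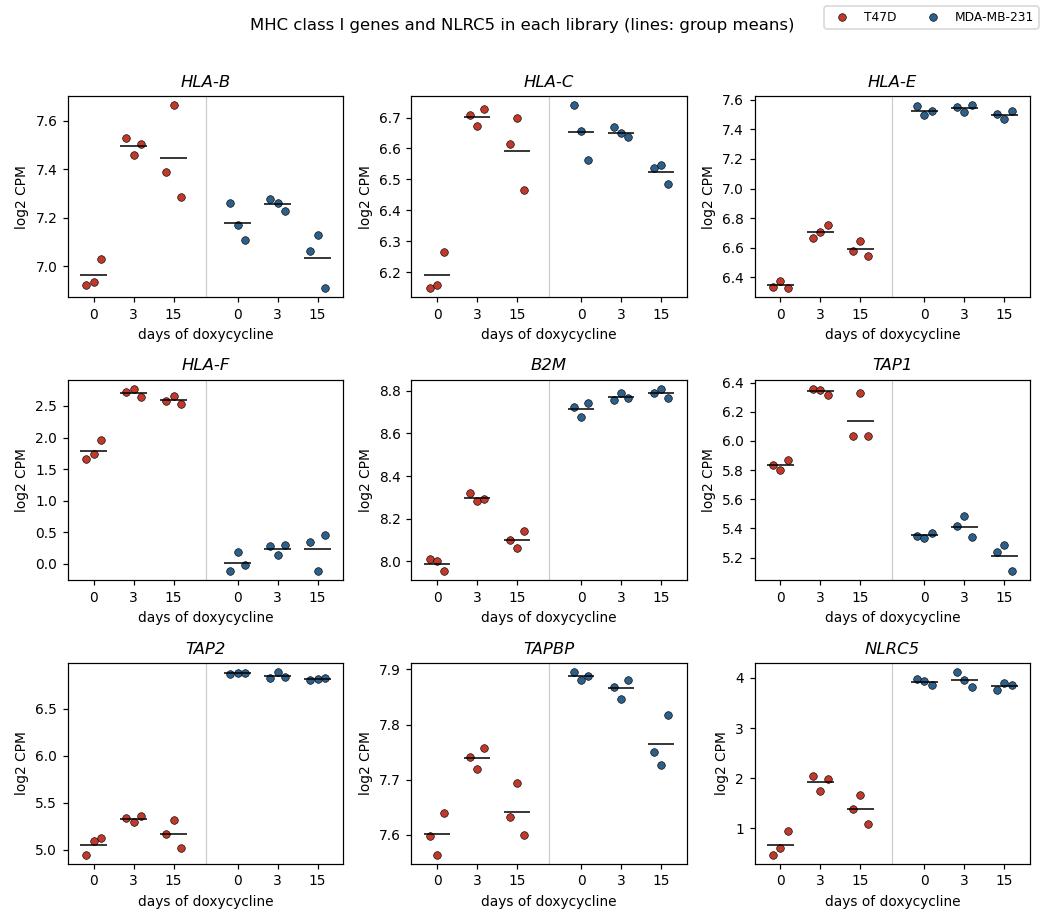
Log2 CPM of each of the 9 genes (vertical axis, its own range per gene) against days of doxycycline, 0 being the control, with 1 point per library and a line at each group mean, T47D on the left and MDA-MB-231 on the right of each panel. All 9 genes of T47D lie above every control library at day 3, with NLRC5 at 3.27 to 4.03 CPM against 1.33 to 1.85 CPM, while the MDA-MB-231 groups lie close together.

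In T47D, 7 of the 9 genes were called higher at day 3 of induction than in control cells. NLRC5 averaged 3.74 ± 0.408 CPM at day 3, against 1.55 ± 0.273 CPM in control cells (SD, n = 3 each), a 2.37-fold rise, HLA-F rose 1.90-fold, HLA-B 1.45-fold, HLA-C 1.43-fold, TAP1 1.42-fold, HLA-E 1.29-fold and B2M 1.24-fold. A gene was called at an adjusted p under 0.05 in limma over all genes of the table. By that rule the 7 rose and 0 of 9 fell, against 1.16% of all T47D genes called higher, 0.718% called lower and 1.88% called in either direction. TAP2 and TAPBP were not called. All 9 members had day 3 libraries above every control library, which held for 10% of all genes. The members' median log2 fold was 0.50, against -0.0026 over all genes.

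NLRC5, the regulator, had 1.33, 1.46 and 1.85 CPM in the T47D control libraries (59 to 74 reads), 4.03, 3.27 and 3.91 CPM at day 3 (148 to 181 reads), and 2.53, 3.12 and 2.07 CPM at day 15 (99 to 142 reads). Every day 3 library exceeded every day 15 library, and every day 15 library exceeded every control library. Its log2 fold at day 3 over control was 1.24 (SE 0.16, limma adjusted p = 0.000336), and 0.440% of T47D genes had a higher one.

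The heavy chain HLA-F, a non-classical class I molecule that natural killer receptors can bind, had 3.08, 3.26 and 3.83 CPM in control libraries (137 to 165 reads), 6.53, 6.77 and 6.19 CPM at day 3, and 5.88, 6.23 and 5.73 CPM at day 15. Control libraries lay below all induced libraries. The log2 fold at day 3 was 0.93 (SE 0.097, limma adjusted p = 2.96e-05). HLA-F was the member with the largest fold among the heavy chains, and the heavy chain with the fewest reads.

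The classical heavy chains HLA-B and HLA-C, which present peptides to CD8 T cells, moved alike in size. HLA-B had 121.1, 122.3 and 130.5 CPM in control libraries, 184.5, 176.1 and 181.6 CPM at day 3, and 167.7, 202.8 and 156.1 CPM at day 15. HLA-C had 70.9, 71.4 and 76.8 CPM in control libraries, 104.5, 102.0 and 105.8 CPM at day 3, and 97.9, 103.8 and 88.4 CPM at day 15. For both genes the induced libraries lay above every control library, and the day 15 libraries spread more widely than those of day 3. The log2 fold at day 3 was 0.54 for HLA-B (SE 0.077, limma adjusted p = 0.00282) and 0.51 for HLA-C (SE 0.053, limma adjusted p = 2.65e-05).

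HLA-E, which presents leader peptides of other class I chains to natural killer cells, had 80.5, 83.1 and 80.4 CPM in control libraries, 101.4, 104.4 and 107.9 CPM at day 3, and 95.5, 99.9 and 93.4 CPM at day 15. The 3 groups did not overlap, with day 15 between control and day 3. Its log2 fold at day 3 was 0.36 (SE 0.038, limma adjusted p = 3.24e-05). B2M, the light chain that all class I heavy chains need, had 258.0, 256.1 and 247.8 CPM in control libraries, 319.5, 311.0 and 313.2 CPM at day 3, and 274.2, 267.2 and 282.2 CPM at day 15. Its groups did not overlap either, and its log2 fold at day 3 was 0.31 (SE 0.031, limma adjusted p = 2.15e-05).

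Of the peptide loading genes, TAP1 changed most. TAP1 had 57.0, 55.8 and 58.5 CPM in control libraries, 82.0, 81.3 and 79.4 CPM at day 3, and 65.5, 80.4 and 65.6 CPM at day 15. One day 15 library reached the day 3 range and the others lay between the day 3 and control ranges. The log2 fold at day 3 was 0.50 (SE 0.065, limma adjusted p = 0.000516). TAP2, the other chain of the transporter, had 30.8, 33.9 and 34.8 CPM in control libraries, 40.3, 39.1 and 40.8 CPM at day 3, and 35.9, 39.8 and 32.2 CPM at day 15. TAPBP, the tapasin that bridges transporter and heavy chain, had 193.7, 189.1 and 199.2 CPM in control libraries, 213.7, 210.8 and 216.4 CPM at day 3, and 198.3, 207.0 and 193.8 CPM at day 15. For both, day 3 lay above control without overlap while day 15 overlapped control. Their log2 folds at day 3, 0.27 for TAP2 (SE 0.069, limma adjusted p = 0.0724) and 0.14 for TAPBP (SE 0.034, limma adjusted p = 0.0549), did not pass the threshold. When T47D day 15 replicate 2 was left out of the fit, whose spread all groups share, both passed, with adjusted p of 0.000176 for TAP2 and 0.000638 for TAPBP. Without day 15 replicate 3 they passed too, at 0.00811 and 0.0222.

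**Figure D2:**
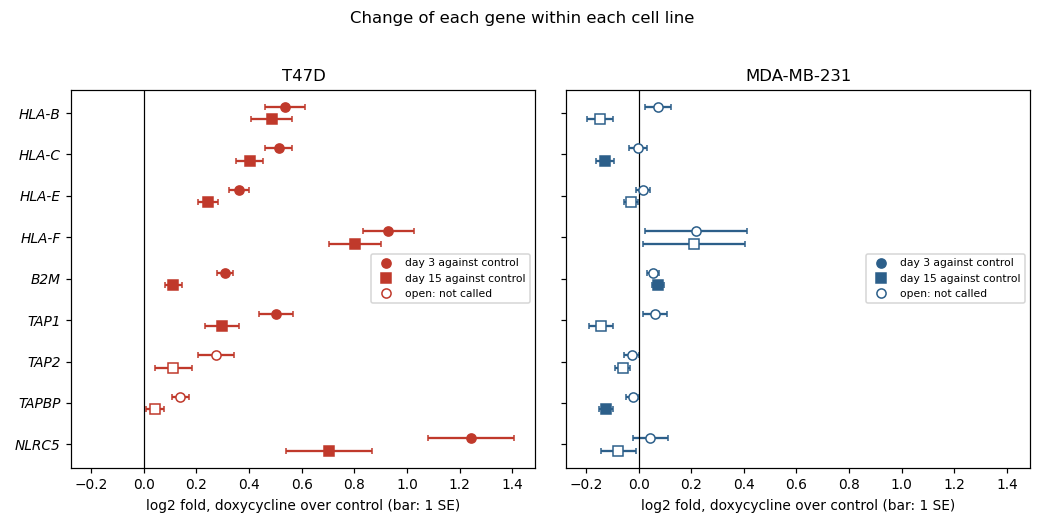
Log2 fold of each gene at day 3 (circles) and day 15 (squares) of doxycycline over control, with bars of 1 SE from limma, T47D on the left and MDA-MB-231 on the right; open symbols did not pass an adjusted p of 0.05. The T47D folds run up to 1.24 for NLRC5 and shrink from day 3 to day 15 for every gene, while those of MDA-MB-231 lie between -0.15 and 0.22.

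At day 15 the T47D changes had the same direction as at day 3 and were smaller. Again 7 of 9 members were called higher and 0 lower, against 5% of all T47D genes called higher and 11.2% called in either direction. The 7 that rose were HLA-F (1.74-fold; log2 fold 0.80, SE 0.097, limma adjusted p = 8.28e-05), NLRC5 (1.63-fold), HLA-B (1.40-fold), HLA-C (1.32-fold), TAP1 (1.23-fold), HLA-E (1.18-fold) and B2M (1.08-fold). These 7 had day 15 libraries above every control library, as did 12.9% of all genes. TAP2 and TAPBP had log2 folds of 0.11 (SE 0.069) and 0.041 (SE 0.034) at day 15, with limma adjusted p of 0.354 and 0.509, and their libraries overlapped those of control cells. The median log2 fold of the members was 0.30, against 0.0028 over all genes. NLRC5 had a log2 fold of 0.70 (SE 0.16, limma adjusted p = 0.0125), which was not called without control replicate 1 (0.071) or control replicate 2 (0.0579). TAP1 had 0.30 (SE 0.065, limma adjusted p = 0.0110) and was not called without control replicate 2 (0.0561) or without trend and robust moderation (0.0586). B2M had 0.11 (SE 0.031, limma adjusted p = 0.0334) and lost its call in 8 of the 9 fits that left out 1 library, with adjusted p up to 0.129; of these 9 fits, that without day 15 replicate 2 kept it. Both comparisons use the same control libraries, and they are therefore not independent of each other.

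The direct comparison of day 15 with day 3 in T47D gave 9 negative log2 folds out of 9, with a median of -0.13 against 0.0021 over all genes. By the test 1 member, B2M, fell, by 0.20 on the log2 scale (SE 0.031, limma adjusted p = 0.00141), and 0 rose, against 3.35% of all genes called lower, 2.23% called higher and 5.58% in either direction. For NLRC5 the log2 fold was -0.54 (SE 0.16, limma adjusted p = 0.0772), for TAP1 -0.21 (SE 0.065, limma adjusted p = 0.102) and for HLA-B -0.051 (SE 0.077, limma adjusted p = 0.812). Day 15 libraries lay below every day 3 library for 4 members (HLA-E, B2M, NLRC5 and TAPBP), as they did for 11.9% of all genes.

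This comparison turned on 1 library. T47D day 15 replicate 2 was the highest of its group for 8 of the 9 members, against 40.4% of all genes, and replicate 3 was the lowest for 7 of 9, against 35.9% of all genes. The members' median deviation from the day 15 mean was 0.11 on the log2 scale in replicate 2 and -0.097 in replicate 3. In HLA-B, replicate 2 had 202.8 CPM, above every day 3 library, and the others had 167.7 and 156.1 CPM. B2M was the exception, with replicate 2 lowest at 267.2 CPM. Without replicate 2, 8 of 9 members were called lower at day 15 than at day 3, all but HLA-F, with NLRC5 at a log2 fold of -0.69 (limma adjusted p = 0.00227), TAP1 at -0.30 (4.18e-07), TAP2 at -0.24 (0.00189), HLA-C at -0.16 (0.00534) and HLA-B at -0.16 (0.00163). The whole table had 2604 of 14768 genes called without that library, against 824 with it. Of these, 1461 were called lower without the library and 494 with it.

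**Figure D3:**
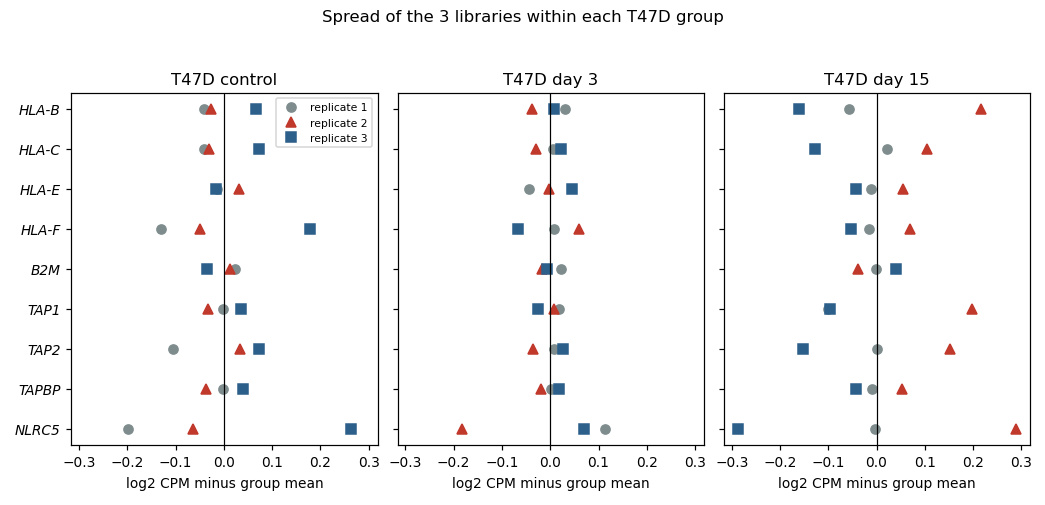
Log2 CPM of each gene in each T47D library minus the mean of its group, for control, day 3 and day 15 from left to right, with a symbol per replicate. The day 3 libraries lie close together, and at day 15 replicate 2 is highest in 8 of 9 genes and replicate 3 lowest in 7 of 9.

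In MDA-MB-231, day 3 of induction moved none of the 9 genes past the threshold. The number called was 0 of 9 in limma, against 1.77% of all MDA-MB-231 genes called (0.895% higher and 0.874% lower); B2M was the member with an unadjusted p under 0.05 (0.0225), and voom on recovered reads also called 0. NLRC5 had 15.6, 15.2 and 14.3 CPM in control libraries, 17.3, 15.4 and 14.1 CPM at day 3, and 13.6, 14.8 and 14.5 CPM at day 15. The 3 groups overlapped, and the log2 fold at day 3 was 0.045 (limma adjusted p = 0.843). The other log2 folds at day 3 lay between -0.027 for TAP2 and 0.22 for HLA-F, with 6 of the 9 positive. Day 3 libraries lay above every control library for B2M alone of the 9, against 10.3% of all genes, and below every control library for none, against 10.1% of all genes.

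The least abundant member in that line was HLA-F, with 0.861, 1.07 and 0.918 CPM in control libraries (37 to 49 reads), 1.15, 1.04 and 1.16 CPM at day 3, and 1.21, 0.854 and 1.31 CPM at day 15. Its groups overlapped, and its log2 folds had an SE of 0.19. HLA-E had 188.5, 180.2 and 184.2 CPM in control libraries, 187.1, 183.0 and 188.8 CPM at day 3, and 181.1, 177.0 and 184.3 CPM at day 15, and its groups overlapped. TAP2 had 116.4, 117.7 and 117.7 CPM in control libraries, 113.2, 118.4 and 113.9 CPM at day 3, and 111.5, 112.5 and 113.3 CPM at day 15, where the day 15 libraries lay below every control library without passing the test (log2 fold -0.061, limma adjusted p = 0.183).

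At day 15 over control, 3 of the 9 genes were called in MDA-MB-231, all by small amounts, and 6 were not. TAPBP fell by 0.12 on the log2 scale (SE 0.026, limma adjusted p = 0.00305) and HLA-C by 0.13 (SE 0.035, limma adjusted p = 0.0231), while B2M rose by 0.074 (SE 0.023, limma adjusted p = 0.0439). These were 1 of 9 members called higher and 2 of 9 called lower, against 3.42% of all genes called higher, 4.77% called lower and 8.2% in either direction. TAPBP had 238.0, 235.6 and 236.9 CPM in control libraries, 233.6, 230.2 and 235.8 CPM at day 3, and 215.3, 211.7 and 225.5 CPM at day 15. HLA-C had 106.8, 100.7 and 94.5 CPM in control libraries, 101.6, 100.3 and 99.4 CPM at day 3, and 92.8, 93.5 and 89.6 CPM at day 15. B2M had 422.3, 409.4 and 428.7 CPM in control libraries, 432.1, 442.7 and 435.0 CPM at day 3, and 443.1, 448.7 and 435.0 CPM at day 15. In each of these 3 genes the day 15 libraries stood clear of the control libraries, although for HLA-C and B2M by less than the spread within the control group.

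TAP1 stood just outside the threshold in the same comparison, and HLA-B further from it. TAP1 had 40.7, 40.3 and 41.3 CPM in control libraries, 42.7, 44.7 and 40.4 CPM at day 3, and 37.7, 38.9 and 34.4 CPM at day 15, a log2 fold at day 15 over control of -0.14 (SE 0.045, limma adjusted p = 0.0517). HLA-B had 153.2, 143.8 and 138.0 CPM in control libraries, 154.9, 153.3 and 149.9 CPM at day 3, and 133.6, 140.1 and 120.2 CPM at day 15, a log2 fold of -0.15 (SE 0.050, limma adjusted p = 0.0918). For HLA-B the day 15 and control ranges overlapped, and for TAP1 they did not. Without day 15 replicate 2 both were called, at adjusted p of 0.0124 for TAP1 and 0.00278 for HLA-B. HLA-B was also called without control replicate 3 (0.0401), and TAP1 without day 3 replicate 3 (0.0489). HLA-C lost its call without control replicate 1 (0.203) or 2 (0.0980) and without day 15 replicate 1 (0.0572) or 3 (0.0812). B2M was not called in 7 of the 9 fits that left out 1 library, with adjusted p of up to 0.271, and kept its call without control replicate 3 or day 15 replicate 3.

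Against day 3, 4 of 9 members were lower at day 15 in MDA-MB-231 and 0 were higher, with 2.86% of all genes called lower, 2.47% higher and 5.33% in either direction. HLA-B fell by 0.22 on the log2 scale (SE 0.050, limma adjusted p = 0.0242), TAP1 by 0.20 (SE 0.045, limma adjusted p = 0.0103), HLA-C by 0.13 (SE 0.035, limma adjusted p = 0.0338) and TAPBP by 0.10 (SE 0.026, limma adjusted p = 0.0218). The day 15 libraries of these 4 genes lay below every day 3 library, as did those of 13% of all genes. None of the 4 was called in the fit without day 3 replicate 1 or in that without day 3 replicate 2. The fit without day 15 replicate 1 called 1 of them, and those without day 15 replicate 3 or day 3 replicate 3 called 2 each; HLA-C alone lost its call without control replicate 2 (0.0571).

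Whether the response differed between the lines was tested as the T47D log2 fold minus the MDA-MB-231 log2 fold, in 1 fit over all 18 libraries and the 12666 genes listed in both tables. At day 3, 8 of 9 members were called with a higher fold in T47D and 0 with a lower one. Of all genes, 1.41% were called with a higher fold in T47D and 2.46% in either direction. The difference was 1.20 for NLRC5 (SE 0.18, limma adjusted p = 0.000262), 0.51 for HLA-C (SE 0.069, limma adjusted p = 4.48e-05), 0.44 for TAP1 (SE 0.087, limma adjusted p = 0.00503) and 0.25 for B2M (SE 0.037, limma adjusted p = 0.000135). HLA-F had a difference of 0.71 but an SE of 0.20, and did not pass (limma adjusted p = 0.0673). TAP2 and TAPBP passed with differences of 0.30 and 0.16 (limma adjusted p = 0.0376 and 0.0348), although neither was called within T47D itself, and their calls were lost in 15 and 11 of the 18 fits that left out 1 library. HLA-B (0.46, SE 0.10, limma adjusted p = 0.0180) lost its call without T47D control replicate 1 (0.0557) or MDA-MB-231 control replicate 1 (0.0576), and HLA-F gained one without T47D control replicate 3 (0.0465) or MDA-MB-231 day 15 replicate 2 (0.0237).

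At day 15, 6 of 9 members were called with a higher fold in T47D and 0 with a lower one. Of all genes, 4.07% were called with a higher fold in T47D and 9.44% in either direction. The 6 were NLRC5 (0.78, SE 0.18, limma adjusted p = 0.00869), HLA-B (0.63, SE 0.10, limma adjusted p = 0.000514), HLA-C (0.53), TAP1 (0.44), HLA-E (0.27) and TAPBP (0.16). B2M, which was called higher than control in both lines at day 15, had a difference of 0.038 (SE 0.037, limma adjusted p = 0.586). TAP2 (0.17, limma adjusted p = 0.172) and HLA-F (0.59, limma adjusted p = 0.0677) did not pass either. The calls of these 6 genes held in all 18 fits that left out 1 library, while HLA-F passed without T47D control replicate 3 (0.0456) or MDA-MB-231 day 15 replicate 3 (0.0330) and TAP2 without T47D day 15 replicate 3 (0.00969).

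**Figure D4:**
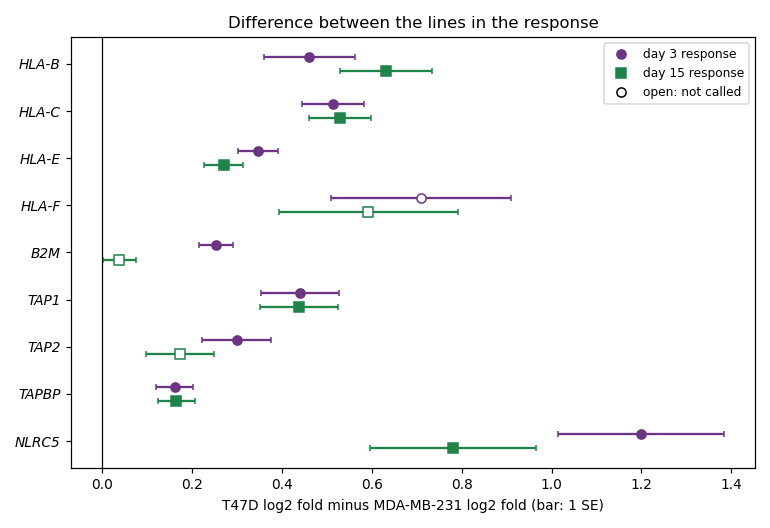
Difference between the lines in each gene's response, as the T47D log2 fold minus the MDA-MB-231 log2 fold at day 3 (circles) and day 15 (squares), with bars of 1 SE from the fit over 18 libraries; open symbols did not pass an adjusted p of 0.05. Every difference is above 0, from 0.038 for B2M at day 15 to 1.20 for NLRC5 at day 3.

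Among the other genes of the pathway, some of those that cut and trim peptides rose in T47D. Of 11 genes of the immunoproteasome, its activator and peptide trimming, 7 rose, 0 fell and 4 were not called at day 3 (median log2 fold 0.29), where 1.16% of all T47D genes were called higher. At day 15, 5 rose, 0 fell and 6 were not called (median 0.11), where 5% of all genes were called higher. At day 3, PSMB9, an interferon-induced catalytic subunit whose gene lies beside TAP1, had 3.56 ± 0.316 CPM, against 1.59 ± 0.255 CPM in control cells (SD, n = 3 each), a log2 fold of 1.14 (SE 0.14, limma adjusted p = 0.000149). The trimming peptidase LAP3 had a log2 fold of 0.81, the catalytic subunit PSMB8 0.67 and the peptidase ERAP2 0.48 at day 3. At day 15 the largest folds were those of PSMB9 (0.75), PSMB8 (0.63), ERAP2 (0.27) and LAP3 (0.21), and against day 3, LAP3 fell by 0.60 on the log2 scale, PSME2 by 0.26 and PSME1 by 0.19. The day 15 count was 3 without control replicate 2 or day 15 replicate 1. In MDA-MB-231, 0 of 11 were called at either time against control.

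The interferon regulators of class I transcription included larger folds than any class I gene. In T47D, 6 of 16 listed regulators rose and 1 fell at day 3 (median log2 fold 0.091; 1.16% of all genes called higher), and 5 rose and 0 fell at day 15 (median 0.19; 5% of all genes called higher). IRF9, the DNA-binding part of the factor that type I interferons activate, had 28.6 ± 0.631 CPM at day 3, against 4.66 ± 0.498 CPM in control cells (SD, n = 3 each), a log2 fold of 2.61 (SE 0.075, limma adjusted p = 5.77e-12). IRF7 had a log2 fold of 2.09 and IRF1, a factor that binds the ISRE of class I promoters, of 0.91; JAK1, a kinase of the interferon receptors, had -0.13, a call that was lost in 7 of the 9 fits leaving out 1 library. At day 15 against control, IRF9 had a log2 fold of 1.62, IRF7 of 1.13 and the receptor chain IFNGR2 of 0.24. At day 15 against day 3, 6 of the 16 fell and 1 rose, against 3.35% of all genes called lower and 2.23% higher, with IRF9 at -0.98, IRF7 at -0.96 and IRF1 at -0.73. The 1 that rose, IFNGR2, was not called without day 3 replicate 1, 2 or 3, with the replicate block or without trend and robust moderation. IRF1 had 2.60 ± 0.569 CPM at day 15, against 2.26 ± 0.129 CPM in control cells (SD, n = 3 each), and was not called in that comparison. In MDA-MB-231, 0 of 17 were called at day 3, and at day 15 IRF1 alone of the 17 was, with a log2 fold of -0.16, not called without control replicate 1 or 2 or day 15 replicate 1 or 3.

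Other lists of factors of class I expression had 0 or 1 members called at each time against control. Of all T47D genes, 1.88% were called in either direction at day 3 and 11.2% at day 15. In MDA-MB-231 these shares were 1.77% and 8.2%. Against such shares, counts of 0 or 1 in lists this short say little about the lists themselves. The 12 enhanceosome partners through which NLRC5 and CIITA act had 0 members called at day 3 in T47D and 1 at day 15, the coactivator EP300 (0.11); in MDA-MB-231, 0 of 12 were called at day 3 and NFYA, a subunit of the CCAAT-binding factor, at day 15 (0.095). Of 5 NF-kB subunits, 0 were called in T47D at either time, and in MDA-MB-231 NFKB2 alone at day 15 (-0.14). Among the chaperones of the endoplasmic reticulum, 0 of 7 listed were called at day 3 in T47D and 1 at day 15, UGGT1, which checks glycoprotein folding (-0.12); in MDA-MB-231, HSPA5 was called at day 3 (0.074) and 0 of 8 at day 15. Of the repressors of class I, 0 of 9 listed were called in T47D at either time. In fits leaving out 1 library, the counts of the lists that hold EP300, NFYA, UGGT1 and HSPA5 changed in 7 or more of the 9, and NFKB2 was not called without control replicate 1 or 2 or day 15 replicate 3.

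Over the 9 T47D libraries, the gene outside the set whose pattern was most like the members' mean was H1-2, a linker histone (Pearson r = 0.995 among 11548 genes), followed by IRF7 (0.990), LGALS3BP (0.988), PML (0.983) and PSMB9 (0.978). These r values describe 9 libraries in 3 groups, the outlying day 15 library included, and carry no test. Each T47D member correlated with the mean of the other members at 0.824 (B2M) to 0.987 (NLRC5). In MDA-MB-231 the same correlations ran from -0.494 for B2M and -0.315 for HLA-F to 0.769 for HLA-B, and the most similar outside gene was GNAS (0.973 among 11461 genes), whose log2 folds against control were 0.0082 at day 3 and -0.029 at day 15.

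Leukocytes express class I genes at high levels, and their markers were therefore read in the same libraries. In T47D 4 of 12 leukocyte markers were listed, and PTPRC, CD3E, CD3D and MS4A1 were not. The summed level of the listed markers was between 1.63 and 2.10 CPM in control libraries, between 1.81 and 2.37 CPM at day 3 and between 1.84 and 2.33 CPM at day 15, with overlap between groups and 0 of 4 called at either time. In MDA-MB-231 5 of 12 were listed, and their sum lay between 179.3 and 184.4 CPM in control libraries, between 182.2 and 183.5 CPM at day 3 and between 188.7 and 193.0 CPM at day 15, above every control and day 3 library. Nearly all of it came from LAPTM5 and CD68, with means of 107.0 and 72.5 CPM in control cells and 114.6 and 74.7 CPM at day 15. PTPRC, CD14 and CORO1A averaged 0.735, 0.844 and 0.794 CPM in control cells and 0.669, 0.728 and 0.646 CPM at day 15. The median log2 fold of the 5 listed markers at day 15 over control was -0.12. Of these 5, LAPTM5 was called higher at day 15, with a log2 fold of 0.099 over control (SE 0.028, limma adjusted p = 0.0285) and 0.094 over day 3 (SE 0.028, limma adjusted p = 0.0490), and its part in the day 15 results of that line was not tested. Fibroblast markers in T47D (2 of 8 listed) summed to between 34.5 and 40.1 CPM in control libraries, between 33.1 and 35.9 CPM at day 3 and between 24.7 and 27.3 CPM at day 15, and 0 of 7 endothelial markers were listed there. In bulk RNA, more RNA per cell and a larger share of cells with a high level cannot be told apart.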

How the data were processed

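The authors deposited 1 table per cell line of log2 CPM values per gene and library, using STAR for alignment, featureCounts for counting and limma, and a genome of build GRCh38.p13; this is per the submitters' processing notes. The sources used here do not give versions, strandedness or any filter for weakly expressed genes, and the unit was read from the values. Undoing the log2 and a pseudocount of 3 reads (adjusted for library size) returned whole reads, within 0.1, for 100% of values, and these gave the depth; because of that pseudocount, folds understate the change of genes with few reads. Library scaling factors were 0.9917 to 1.0117 in T47D and 0.991 to 1.0039 in MDA-MB-231, set within each table.

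All listed genes (14768 in T47D, 14308 in MDA-MB-231) were fitted with limma 3.58.1 (R 4.3.3; trend and robust moderation) on the 9 libraries of a line as deposited, with group means as terms. The calling threshold was 0.05 on Benjamini-Hochberg adjusted p-values, taken over the whole table. The difference between lines was a contrast over 18 libraries and 12666 shared genes. The design had also allowed for raw counts; log2 values were found, and the test written for them was used. The fits within each line were run on simulated counts with known changes, the same dispersion for every gene and no outlying library. That run does not cover a library such as T47D day 15 replicate 2. Alternatives were a replicate block, a pseudocount of 1 read, a minimum mean log2 CPM of 1, median-centred libraries, no trend or robust moderation, voom on recovered reads and leaving out each library.

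The members and the gene lists were chosen with earlier results of these data known. All 9 members are named throughout, up to 4 called genes by size of change from each of 9 pathway lists, and 5 genes per line by likeness to the members' mean among named genes of mean log2 CPM 1 or more. Some genes that this rule takes are not reported here. The 5 marker lists cover leukocytes, fibroblasts, endothelial cells and the identity of each line. CPM per kb uses the longest coding transcript of GENCODE 29. Replicate libraries all differed by more than sampling noise by chi-square on their recovered reads (genes of at least 10 reads), and each was counted once. The series text speaks of parental and resistant lines in triplicate, which differs from the sample labels; the labels were followed.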

Additional observations from a re-analysis of the deposited data

Results flagged for a closer look

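The response to induction differed between the lines for 8 members at day 3 and 6 at day 15, by a direct test of the difference (T47D log2 fold minus MDA-MB-231 log2 fold, limma over 18 libraries, adjusted p under 0.05). At day 3 the differences were 1.20 for NLRC5, 0.51 for HLA-C, 0.46 for HLA-B, 0.44 for TAP1, 0.35 for HLA-E, 0.30 for TAP2, 0.25 for B2M and 0.16 for TAPBP. At day 15 they were 0.78 for NLRC5, 0.63 for HLA-B, 0.53 for HLA-C, 0.44 for TAP1, 0.27 for HLA-E and 0.16 for TAPBP. All 14 were positive, that is, the fold was higher in T47D than in MDA-MB-231. In T47D each of these genes had all 3 day 3 libraries above the 3 control libraries. Starting levels differed too, with NLRC5 at 1.55 ± 0.273 CPM in T47D control cells and 15.1 ± 0.657 CPM in MDA-MB-231 control cells (SD, n = 3 each, tables scaled separately), and the part of the starting level in these differences was not tested.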

How the results depend on the processing

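All 7 calls at day 3 in T47D held in every alternative run, with log2 folds of 1.14 to 1.38 for NLRC5 when 1 library was left out. The number of members called higher ranged from 7 to 9 there, from 4 (without control replicate 2) to 7 at day 15 in T47D, and the number lower at day 15 than at day 3 from 1 to 8 (without day 15 replicate 2). At day 15 over control in MDA-MB-231 it ranged from 0 to 1 higher and from 1 to 4 lower, and from 0 to 4 lower against day 3; the difference between lines at day 3 ranged from 5 (without the first control replicate of either line) to 9. Without trend and robust moderation, MDA-MB-231 had 0 members higher and 0 lower at day 15 over control and 0 lower against day 3, and voom gave 0 higher at day 15 over control. Replicate numbers did not pair the T47D libraries: same-numbered correlations of deviations were -0.41 to 0.073, with 0 of 9 libraries closest to their own number. In MDA-MB-231 these correlations were -0.031 to 0.28, against -0.261 to 0.194 for other pairs, and 6 of 9 libraries were closest to their own number. Only 4 of the 9 same-numbered correlations exceeded 0.1, and the main fit took the libraries as unpaired. A pairing in MDA-MB-231 was therefore not settled, and the main fit of that line leaves it out. Without trend and robust moderation TAP1 and B2M lost their calls at day 15 in T47D (adjusted p = 0.0586 and 0.102). With the replicate block, B2M lost its call at day 15 in T47D (adjusted p = 0.0851), the members called lower at day 15 over control in MDA-MB-231 went to 4, and the differences of TAP2 and TAPBP at day 3 lost theirs (0.0698 and 0.0782).

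Signs turned only for values that were not called. HLA-B at day 15 against day 3 in T47D ranged from -0.16 to 0.029 over omitted libraries. At day 3 in MDA-MB-231, HLA-C ranged from -0.046 to 0.042 (0.0052 under voom), HLA-E from -0.0001 to 0.032 and NLRC5 from -0.030 to 0.11, and HLA-F at day 15 against day 3 from -0.12 to 0.17. Genes called over the whole table moved by over 1.5 times under the block in T47D day 15 against day 3 (511 against 824) and in MDA-MB-231 (637, 2273 and 1788 for day 3, day 15 and day 15 against day 3, where 253, 1173 and 763 were called without it), and under no trend or robust moderation (549 for T47D day 15 against day 3, and 63, 232 and 32 in MDA-MB-231). Without day 15 replicate 2, MDA-MB-231 had 1897 genes called at day 15 over control and 1664 against day 3. Voom on recovered reads called 272, 1622 and 820 genes in T47D, and 279, 1124 and 646 in MDA-MB-231. A minimum mean log2 CPM of 1 removed HLA-F from the MDA-MB-231 table. Median-centring moved no all-gene median by over 0.1. HLA-F in MDA-MB-231 had 37 to 49 reads per control library. The causes of these changes were not tested.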

Other observations

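Some genes related to class I but outside the presenting set were called at day 15 in T47D. Of 12 listed class I-like heavy chains and ligands of the killer cell receptor NKG2D, 0 were called at day 3 and 5 rose at day 15, against 5% of all genes called higher. HLA-G, a non-classical heavy chain best known from the placenta, averaged 4.03 ± 0.549 CPM at day 15, against 2.40 ± 0.337 CPM in control cells (SD, n = 3 each), a log2 fold of 0.73 (SE 0.19, limma adjusted p = 0.0289). PROCR had a log2 fold of 0.51, the NKG2D ligand ULBP2 of 0.38 and MR1, which presents vitamin metabolites, of 0.17. The count was 0 without control replicate 1 or day 15 replicate 1, 1 without control replicate 3, 2 without day 15 replicate 3, and 3 without control replicate 2 or day 3 replicate 3. Directly against day 3, ULBP2 alone of the 12 was called higher at day 15, and HLA-G (limma adjusted p = 0.140), PROCR (0.256) and MR1 (0.756) were not; the ULBP2 call was lost in 6 of the 9 fits leaving out 1 library. In MDA-MB-231, 0 of 11 were called at either time against control.

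Class II genes did not move alike in T47D, where 5 of 12 were listed and their regulator CIITA was not. At day 3, CD74, the class II invariant chain, rose by a log2 fold of 0.41 (SE 0.080, limma adjusted p = 0.0109), a call lost without control replicate 1 or day 3 replicate 1 or 3. CD74 averaged 6.82 CPM in control cells, 9.09 CPM at day 3 and 7.87 CPM at day 15, where it was not called against control. HLA-DMA and HLA-DMB were not called at either time against control. At day 15, HLA-DQB1 had 2.94 ± 0.687 CPM, against 1.34 ± 0.0217 CPM in control cells, and HLA-DRB1 had 5.81 ± 0.474 CPM, against 3.44 ± 0.0561 CPM in control cells (SD, n = 3 each). Their log2 folds were 1.07 (SE 0.15, limma adjusted p = 0.000344) and 0.74 (SE 0.11, limma adjusted p = 0.000530). Both were also called higher at day 15 than at day 3, by 0.69 and 0.49, where 2.23% of all genes were called higher. Neither was called without day 3 replicate 1 or 2, and 1 class II gene was called without day 3 replicate 3 or day 15 replicate 1. In MDA-MB-231, 0 of 8 class II genes were called at day 3, and CD74 fell by 0.17 at day 15.

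Among ligands of inhibitory receptors, CD276 (0.19) rose and PVR (-0.21) fell at day 15 in T47D, with 0 of 6 called at day 3; CD276 was not called without control replicate 2. In MDA-MB-231, NECTIN2 (-0.11) and PVR (-0.098) fell at day 15, with 0 of 9 called at day 3; both calls were lost without control replicate 1 or 2, and 1 gene was called without day 15 replicate 1 or 2. The stretch of chromosome 6 between the outermost members, chr6:29722775-33314387, held 98 other listed genes in T47D, of which 5 were called higher and 0 lower at day 3 (median log2 fold 0.038), and 15 higher and 3 lower at day 15 (0.048), where 1.16% of all T47D genes were called higher and 0.718% lower at day 3, and 5% higher and 6.23% lower at day 15. In MDA-MB-231 it held 96, with 0 higher and 1 lower at day 3, and 0 higher and 7 lower at day 15 (median -0.042), where 0.895% of all genes were called higher and 0.874% lower at day 3, and 3.42% higher and 4.77% lower at day 15; this stretch was chosen after the members' values were seen. Only the members were left out of it, so genes of the lists above that lie there, such as PSMB9, are counted again.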
